A study of Homo sapiens with 2 samples.

Results

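The genes described here repair damaged DNA. They comprise genes of homologous recombination, the Fanconi pathway, the damage checkpoint, mismatch repair and end joining, 45 in all. The genes were chosen by function, but with earlier results of these data known. Of these, 41 were read by at least 1 probe set that the array annotation assigns to a single gene symbol, out of 19775 genes so named on the array. BRCA2, RBBP8, FANCA and FANCD2 had no such probe set in the annotation used and were not analysed here.

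Expression was measured in U87, an established human glioblastoma cell line, to find the genes whose mRNA differs after silencing of the homeobox gene HOXD9. The data are 1 Affymetrix U133 Plus 2.0 array of cells given control siRNA and 1 array of cells given HOXD9 siRNA (the duplex called HOXD9 siRNA-2 in the protocol), each at 50 nM with a lipid reagent. RNA was taken on Day 2. With 1 array per condition there is no replicate error, p-value or test, and an action of this duplex on other transcripts cannot be told apart from that of HOXD9.

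Each probe set gave 1 linear signal intensity per array. The log2 ratio is HOXD9 siRNA over control siRNA, so that a negative value means a lower signal after silencing. Probe sets with a mean signal of at least 19.8, the median of the array, were used, and a gene is represented by its brightest such probe set. As a guide to background, 27 probe sets for Bacillus subtilis control transcripts read at most 11.4 with control siRNA and at most 18.4 with HOXD9 siRNA. Where 1 of 2 signals did not exceed 18.4, only a bound on the fold is stated.

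Most genes read lower on the HOXD9 siRNA array, whose median signal was 18.3 against 22.5 on the other. The median log2 ratio of the 11624 genes above the filter was -0.25, and bringing both arrays to one median adds 0.30 to every ratio. Spiked-in bacterial and phage RNAs, which do not come from the cells, had a median log2 ratio of -0.17 over 18 probe sets (from -0.46 to -0.01). The 2 HOXD9 probe sets read 19.7 and 9.33 with control siRNA and 5.58 and 11.4 with HOXD9 siRNA, so that only 1 of the 4 signals exceeded 18.4. The mesenchymal and glial cell marker VIM was bright (11349 and 10823), as was CD44, and NES, a progenitor marker, read 116 and 70.6. GFAP, S100B, OLIG2 and the leukocyte marker PTPRC stayed within background on both arrays, and SOX2 exceeded it only with control siRNA, at 19.2. The neuronal markers TUBB3 (4221 and 4216) and SYT1 (91.8 and 30.3) and the epithelial marker EPCAM (28.2 and 23.8) exceeded background on both arrays. The leukocyte marker CD3E did so only with HOXD9 siRNA, at 23.3, and neuronal RBFOX3 and epithelial CDH1 on neither array.

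When both strands of DNA break, homologous recombination copies the lost sequence from the sister chromatid and therefore operates in S and G2 phase, whereas end joining ligates the ends in any phase. The Fanconi proteins recognize crosslinks between the strands, attach ubiquitin to a pair of proteins at the lesion and hand the break to recombination. Glioblastoma cells rely on these routes to survive radiation and alkylating drugs. Many recombination and Fanconi genes are transcribed in S phase under E2F factors, while the Ku proteins of end joining are made throughout the cycle.

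All 41 repair genes read lower with HOXD9 siRNA, as did 83.2% of all genes. Their median log2 ratio was -0.58, against -0.25 over all genes. FANCB, the lowest, was at least 3.02-fold lower, and the other genes ranged from -1.37 to -0.03. Below the all-gene median lay 34 of the 41, as do 50.0% of genes by definition. Bringing both arrays to one median moved the repair genes to -0.28 and all genes to 0.05, with 33 of the 41 below 0 against 43.7% of all genes. By role, the 3 groups of homologous recombination and the 2 of the Fanconi pathway had medians from -0.89 to -0.61. The median of the 2 mismatch repair genes lay in that range too (-0.62). Checkpoint kinases had a median of -0.45, break sensing genes -0.31 and end joining genes -0.24. The order of the roles depended in part on which probe sets were used, as described at the end.

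Differences past the 2-fold threshold of the study were few. FANCB and XRCC3 passed it downward, 2 of 41 genes, where 4.95% of all genes did, and none passed it upward (0.516% of all genes). With the arrays at one median the count was again 2, against 2.31% of all genes. The share is near that of the whole array, so the 2-fold count says nothing particular about repair genes. At a threshold of 1.5-fold, set after the values had been seen, 20 of the 41 were lower, against 17.8% of all genes. With the arrays at one median 8 remained of those 20, against 6.74% of all genes, namely FANCB, XRCC3, RAD54B, BRCA1, FANCF, RAD54L, BARD1 and RAD51AP1.

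Dim genes pass a fold threshold more often, so the counts were also set beside genes of like signal. Among genes with a mean signal from 100 to 300, 17.7% were lower by more than 1.5-fold, and 9 of 15 repair genes in that range were. From 300 to 1000 the share was 10.2%, with 6 of 14 repair genes. Above 1000 it was 3.57%, with MSH6 and USP1 the 2 of 5 repair genes past the threshold. Under 100 it was 29.4%, with 3 of 7 repair genes. The median log2 ratio of the repair genes was lower than that of all genes in each of the 4 ranges.

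**Figure D1:**
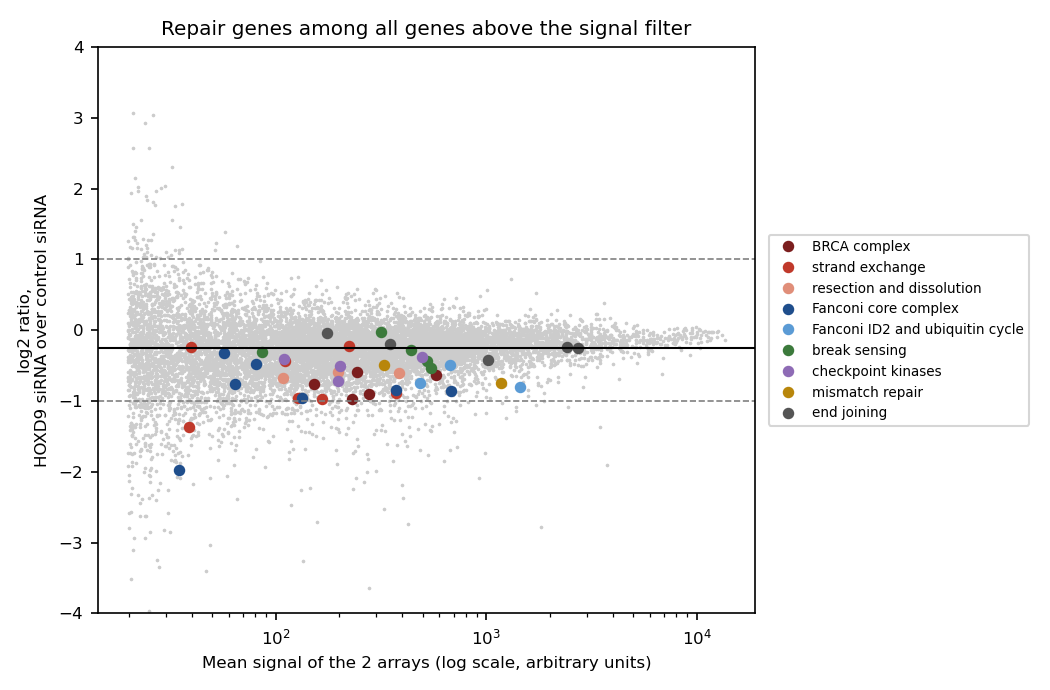
The log2 ratio (y axis, HOXD9 siRNA over control siRNA) of the brightest probe set of each gene is set against the average of both signals (x axis, log scale) for 11624 genes (gray) and 41 repair genes (colored by role). The solid line marks the median of all genes, -0.25, and dashed lines mark 2-fold. Colored points lie in the lower part of the gray cloud at middle signals, and the 2 below the 2-fold line are dim.

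Without replicate arrays, the spread among probe sets of one gene is the only measure of reading error, and it leaves out variation between cultures. The pooled SD of the log2 ratio among probe sets of one repair gene was 0.17 over 21 genes when both signals exceeded background, and 0.36 over 22 genes when probe sets with a signal within background were included. Over all genes with several probe sets above the filter it was 0.41. Such a spread does not give the error of a ratio between cultures. Differences between repair genes near this size or smaller carry no order. Of the 78 probe sets above the filter, 76 read lower, against 81.9% of all such probe sets on the array, and 6 were lower by more than 2-fold, against 6.69%. In 6 of the 22 genes with several probe sets (BRCA1, BARD1, BRIP1, FANCF, USP1 and MSH6) every one was lower by more than 1.5-fold, where 5.33% of all such genes were. With the arrays at one median only BRCA1 kept every probe set past 1.5-fold (-0.67 and -1.06), and the matching share of all such genes was not computed. In 13 of the 22 every probe set lay below -0.25, against 26.2%.

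**Figure D2:**
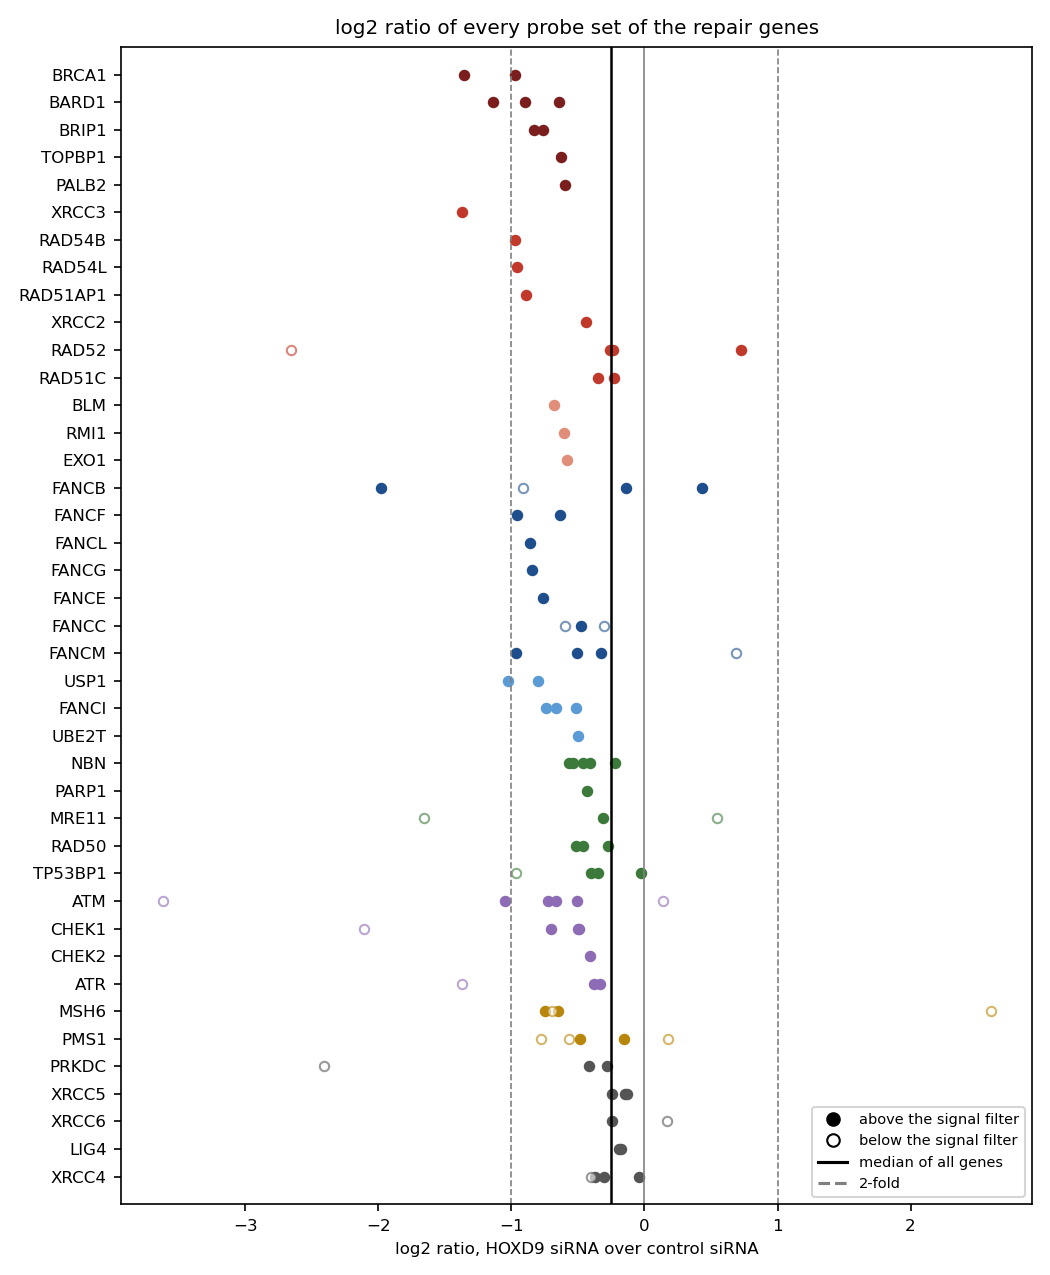
Each point is the log2 ratio (x axis, HOXD9 siRNA over control siRNA) of 1 probe set of a repair gene (y axis, ordered and colored by role, with the order of roles as in the plot of signals). Filled points passed the signal filter and open points did not, the black line marks the median of all genes and dashed lines 2-fold. Filled points of a gene spread most widely in FANCB and RAD52, and open points scatter more than filled ones.

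The proximal promoters of these genes were searched for E2F-type letters, since E2F factors are known to drive S phase genes. RefSeq start sites (GRCh38.p14), from 250 bases before to 50 after each start, were held for 40 of the 45 genes, 36 of them read on the array. The word TTCCCGC, or in its place TTGGCGC, or else TTCGCGC, or finally TTGCCGC, stood on either strand in 22 of the 36, or 61.1%, against 24.7% of 9519 genes above the filter with a promoter entry and 13.0% of all 35116 promoters. The 22 genes had a median log2 ratio of -0.76 (from -1.37 to -0.24). The 14 others had a median of -0.35. They ranged from FANCB, at least 3.02-fold lower, to -0.03, which spans the range of the 22. Over all genes the medians were -0.29 with and -0.24 without the letters. Genes with several starts, 13 of the 40, had more chances to hold a match. With an added T in front of each word (8 letters) the share was 19.4% of the repair genes against 6.75% of genes above the filter, and the medians of repair genes with and without it were -0.58 and -0.60. The CCAAT box was found in 61.1% and 43.7%. The cell cycle homology element (TTTGAA or TTCGAA) stood in 13.9% of the repair genes and 16.3% of genes above the filter. A match describes letters only and is not a bound site.

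The 120 bases before the start site are printed for 8 genes. These 8 were picked after the values were seen. The first 5 have a match and log2 ratios from -0.97 to -0.84. With the arrays at one median FANCL (-0.56) and FANCG (-0.54) fell short of 1.5-fold. PARP1 has a match but differed less. XRCC4 and TP53BP1 have no match and differed least on their brightest probe sets. Their other probe sets above the filter gave -0.40 to -0.30. Opposite cases exist that are not printed. ATM (-0.72) and PALB2 (-0.60) have no match, and XRCC6 and RAD52 (both -0.24) have one. The printed bases run 5′ to 3′ on the strand of the gene up to the base before the start, with the E2F-type letters in capitals. The windows lie at chr17:43125365-43125484 (BRCA1, minus strand), chr12:4538770-4538889 (RAD51AP1, plus), chr1:46247568-46247687 (RAD54L, plus), chr2:58241326-58241445 (FANCL, minus), chr9:35079943-35080062 (FANCG, minus), chr1:226408094-226408213 (PARP1, minus), chr5:83077427-83077546 (XRCC4, plus) and chr15:43510641-43510760 (TP53BP1, minus), all in GRCh38.p14.
BRCA1: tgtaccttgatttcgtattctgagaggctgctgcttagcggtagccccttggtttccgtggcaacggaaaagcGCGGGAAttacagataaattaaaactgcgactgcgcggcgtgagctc
RAD51AP1: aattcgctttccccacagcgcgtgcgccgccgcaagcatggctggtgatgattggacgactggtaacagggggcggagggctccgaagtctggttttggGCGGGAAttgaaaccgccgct
RAD54L: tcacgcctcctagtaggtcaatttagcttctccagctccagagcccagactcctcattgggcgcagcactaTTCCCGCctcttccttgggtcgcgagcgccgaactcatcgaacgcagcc
FANCL: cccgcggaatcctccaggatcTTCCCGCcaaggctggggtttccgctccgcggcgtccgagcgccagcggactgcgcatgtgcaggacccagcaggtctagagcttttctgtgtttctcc
FANCG: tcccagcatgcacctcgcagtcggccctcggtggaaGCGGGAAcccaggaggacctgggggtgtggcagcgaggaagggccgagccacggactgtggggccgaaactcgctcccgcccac
PARP1: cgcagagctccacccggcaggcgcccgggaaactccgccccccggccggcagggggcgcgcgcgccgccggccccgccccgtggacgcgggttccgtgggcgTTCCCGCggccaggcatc
XRCC4: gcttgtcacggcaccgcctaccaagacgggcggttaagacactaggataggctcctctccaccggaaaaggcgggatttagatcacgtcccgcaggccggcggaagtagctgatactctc
TP53BP1: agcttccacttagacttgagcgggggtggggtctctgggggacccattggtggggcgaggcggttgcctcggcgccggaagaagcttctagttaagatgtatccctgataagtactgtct

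In BRCA1 the match lay 47 to 41 bases before the start, on the reverse strand. That of RAD51AP1 began at -21, that of RAD54L at -49, that of FANCG at -84 and that of FANCL at -99. PARP1 had its match at -18 to -12, nearer to the start than all of these but close to that of RAD51AP1, with a log2 ratio of -0.43 against -0.89.

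BRCA1 and its partners were lower throughout, with log2 ratios from -0.97 to -0.60 and a median of -0.76 over 5 genes. BRCA1 encodes a ubiquitin ligase that prepares broken ends for recombination. One probe set read 305 with control siRNA and 155 after silencing, 51.0% of the control, and the other 120 and 46.9, log2 ratios of -0.97 and -1.36. BARD1, the obligate partner of BRCA1 in the ligase, gave 363 and 195 where it was brightest, and its 3 probe sets had log2 ratios of -0.90, -0.64 and -1.14. Every probe set of both ligase subunits, 5 in all, passed 1.5-fold as deposited, as in 5.33% of all genes with several probe sets above the filter. With the arrays at one median the BARD1 value of -0.64 became -0.34 and did not. Both BRCA1 probe sets have a suffix (_s_at or _x_at) that marks probes able to bind several transcripts. The helicase BRIP1, which binds the BRCA1 repeats and is itself a Fanconi gene, read 192 and 113, with -0.76 and -0.83 on its 2 probe sets. TOPBP1, a scaffold that activates the kinase ATR, went from 699 to 452. PALB2, which bridges BRCA1 to BRCA2, gave 294 and 195, or 66.2% of the control.

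Genes of strand exchange, in which a broken strand invades the intact copy, divided into lower and little changed members. RAD51AP1, a protein that promotes strand invasion, read 484 with control siRNA and 262 with HOXD9 siRNA (log2 ratio -0.89). The translocases RAD54L and RAD54B, which remodel the joint molecule, read 169 and 87.0, and 221 and 112. Their log2 ratios were nearly equal, -0.96 and -0.98, about 51% of the control in both. XRCC3, which acts in strand exchange and in the resolution of joint molecules, had the lowest value of the group at -1.37, on a single dim probe set of 56.1 and 21.7 whose suffix (_s_at) marks probes that can bind several transcripts. XRCC2, also needed for strand exchange, read 127 and 93.5 (-0.44). RAD51C, which forms a complex with XRCC3, stood at the median of the array with 241 and 205 (-0.23), and its other probe set gave -0.35. RAD52, an annealing protein, had -0.24 and -0.26 on 2 probe sets, and 1 more was at least 1.43-fold higher, from a control signal within background.

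Resection and dissolution genes lay close together. The exonuclease EXO1, which trims broken ends, read 236 and 157, or -0.58, just short of 1.5-fold. BLM, the helicase mutated in Bloom syndrome, read 83.1 after silencing, 62.5% of its control signal (-0.68). Its partner RMI1 gave 465 and 305 (-0.61). All 3 genes were read by 1 probe set above the filter each.

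**Figure D3:**
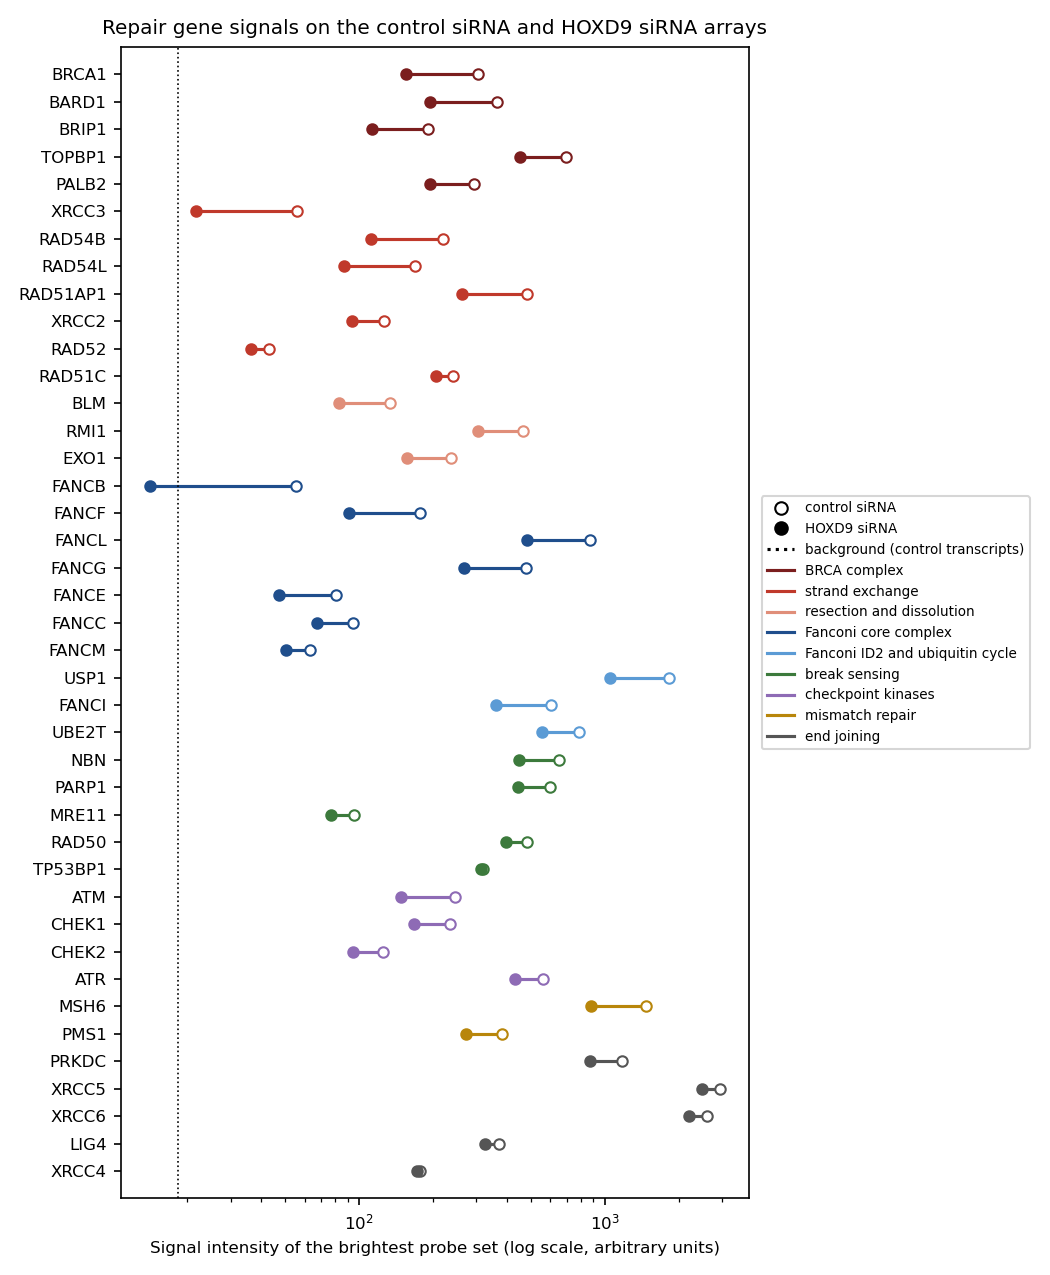
Signals of the brightest probe set of each repair gene (x axis, log scale) are shown for the control siRNA array (open circles) and the HOXD9 siRNA array (filled circles), with genes ordered by role and then by log2 ratio. The dotted line marks the background of 18.4 from the control transcripts. The filled circle lies left of the open one in all 41 genes, with the widest gaps in FANCB and XRCC3 and narrow ones in genes of several roles, such as TP53BP1, XRCC4, LIG4 and RAD51C.

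Fanconi core complex genes, which form the ubiquitin ligase of the pathway, had a median log2 ratio of -0.84 over 7 genes, all 7 below the all-gene median. FANCL carries the ligase activity of the complex and was its brightest member, with 874 and 482, or 55.1% of the control. FANCG, an adaptor of the complex, read 479 and 267 (-0.84). FANCF, another adaptor, gave 177 and 91.2 on one probe set and 147 and 94.5 on the other, log2 ratios of -0.96 and -0.64. FANCE, which contacts the FANCD2 substrate, read 80.6 and 47.4 (-0.77). FANCC, its neighbor in the complex, read 94.1 and 67.6 (-0.48). FANCM, the DNA translocase that anchors the complex, gave -0.33 on its brightest probe set (63.2 and 50.4) and -0.96 on a dimmer one.

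FANCB, an X-linked subunit that is needed for ligase activity, was not read alike by its probe sets. The brightest gave 55.5 and 14.1, at least 3.02-fold lower (2.45-fold with the arrays at one median). The next gave 34.7 and 31.5, a log2 ratio of -0.14, and the dimmest above the filter 17.5 and 23.7, at least 1.29-fold higher. Another, below the filter, gave 24.5 and 13.0, at least 1.33-fold lower. Averaged over the 3 above the filter, ratios with a signal within background included, FANCB had a log2 ratio of -0.56 and did not pass 2-fold. Its place among the lowest genes rests on 1 probe set.

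Downstream of the ligase, FANCI, the partner of FANCD2 in the clamp that receives ubiquitin, read 605 and 361, and its 3 probe sets gave -0.74, -0.66 and -0.51. UBE2T, the enzyme that supplies the ubiquitin, read 784 and 555 (-0.50). USP1, the protease that removes it, read 1834 and 1051, or 57.3% of the control, and -1.03 on its other probe set. FANCI and USP1 were lower by more than 1.5-fold and UBE2T was not.

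Genes that sense breaks had a median of -0.31 over 5 genes (-0.42 when the probe sets of each gene were averaged) and none past 1.5-fold on its brightest probe set. NBN, which brings the MRE11 nuclease complex to breaks, read 649 and 448, and its 5 probe sets ranged from -0.56 to -0.22. The other subunits were RAD50, with 482 and 398 (-0.28, and -0.51 and -0.46 on its other probe sets), and the nuclease MRE11, with 95.4 and 77.1 (-0.31). PARP1, the polymerase that marks breaks with poly(ADP-ribose), gave 600 and 445 (-0.43). TP53BP1, which protects ends from resection and favors end joining, read 321 and 315, a log2 ratio of -0.03, close to that of XRCC4. Its other probe sets above the filter gave -0.35 and -0.40, below the median of the array, so the brightest one alone places it above.

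Among the checkpoint kinases ATM had the lowest value. ATM answers to broken ends, and its 3 brightest probe sets read 246 and 149, 163 and 103, and 135 and 65.2, log2 ratios of -0.72, -0.66 and -1.05. ATR, which answers to single-stranded DNA at stalled forks, read 558 and 430 (-0.38). CHEK1, the effector kinase of ATR, gave 236 and 167 on its brightest probe set and -0.50, -0.70 and -0.49 on its 3 probe sets. CHEK2, the effector of ATM, gave 126 and 94.5 (-0.41). All 4 kinases lay below the median of the array, where 50.0% of genes lie, and 1 of the 4, ATM, was lower by more than 1.5-fold, against 17.8% of all genes.

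In mismatch repair, MSH6, which recognizes mispaired bases, read 1479 and 879 on one probe set and 750 and 479 on the other, log2 ratios of -0.75 and -0.65. The MutL homolog PMS1 read 381 and 272 (-0.49), with -0.16 on a dimmer probe set. MSH6 and USP1 were thus the brightest of the repair genes that were lower by more than 1.5-fold.

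End joining genes had a median of -0.24 over 5 genes, and 1 of them, PRKDC, lay below the all-gene median. The Ku proteins, which encircle broken ends, read 2948 and 2484 for XRCC5 (Ku80) and 2613 and 2208 for XRCC6 (Ku70). Their log2 ratios were -0.25 and -0.24, beside -0.25 for all genes. PRKDC, the catalytic subunit of DNA-PK recruited by Ku, read 1171 and 875 (-0.42). LIG4, the ligase of the pathway, gave 372 and 325, and XRCC4, its stabilizing partner, 178 and 173. Their values were -0.19 and -0.04, with the dimmer XRCC4 probe sets at -0.37 and -0.30. The 5 genes ranged from -0.42 to -0.04, and overlapped with the strand exchange genes RAD51C and RAD52 and the Fanconi core gene FANCM, which lay between -0.33 and -0.23. Genes are not replicates, and differences between roles were not tested.

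Below the signal filter lay 20 further probe sets of these genes, with mean signals from 1.08 to 19.2. In 12 of them both signals were within background and no fold is given. In the other 8 only 1 signal exceeded it, and the bounds ran from 1.04-fold to 1.33-fold, lower or higher.

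Further genes of DNA repair were placed in lists by function. Of 39 other recombination, crosslink and end joining genes above the filter, 11 were lower by more than 1.5-fold and 1 higher, with a median of -0.39 (-0.09 with the arrays at one median). For this and the following lists the share of all genes lower by more than 1.5-fold is 17.8%, and by more than 2-fold 4.95%, and the median of all genes -0.25. DCLRE1B, the Apollo nuclease, had the lowest value, with 364 and 112 (-1.70), and -0.62 on its other probe set. RAD54L2 (-1.27) and TOP3A (-0.98), the topoisomerase that works with BLM, also had a probe set that read higher. POLN was at least 1.76-fold higher from a control signal within background. Among 25 damage signaling genes 7 were lower by more than 1.5-fold and none higher, with a median of -0.41 (-0.11 with the arrays at one median). MDC1, a scaffold at breaks, gave 141 and 66.4 (-1.09, and -1.12 on its other probe set), RAD17 -0.94 (up to -0.17 over its 3 probe sets), CDC25C -0.78 and UIMC1, which targets BRCA1 to breaks, -0.72.

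The excision and mismatch repair genes had a median closer to that of the array, -0.31 over 40 genes (-0.01 with the arrays at one median). Of the 40, 22 lay below -0.25. The counts past a threshold were not closer to the array. Lower by more than 1.5-fold were 12 of the 40, against 17.8% of all genes. The 4 past 2-fold, against 4.95% of all genes, were ERCC4, APEX1, MSH3 and TDG. ERCC4, the XPF nuclease that also cuts at crosslinks, gave 139 and 46.5 (-1.58, and -1.03 on its other probe set). APEX1, the main abasic site nuclease, gave 1231 and 542 (-1.18) on 1 probe set. MSH3 read -1.13 and -0.43, and the glycosylase TDG -1.06 and -0.43. Of 14 translesion synthesis genes, 5 were lower by more than 1.5-fold and the median was -0.40, with POLH at -1.27 (its 5 probe sets differed in direction), ATAD5 at -0.86, POLK at -0.83 and PRIMPOL at -0.65.

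S phase markers read lower alongside the recombination genes. All 17 lay below the all-gene median, 12 were lower by more than 1.5-fold and 4 by more than 2-fold, and their median was -0.75 (from -1.63 to -0.37). With the arrays at one median it was -0.45, against 0.05 for all genes. Of those 4 only CDT1 then stayed past 2-fold (-1.33). The licensing factor CDT1 gave -1.63 and -0.69 on its 2 probe sets, the cyclin CCNE2 -1.13, CDC6 -1.12 and the helicase factor CDC45 -1.09. On their brightest probe sets the G2/M markers differed less, with a median of -0.39 over 17 genes (from -0.73 to 0.21). With the arrays at one median it was -0.09. CDK1 was the only one past 1.5-fold on that probe set, at -0.73. KIF11 and TOP2A stood at -0.53 and CENPE at -0.52. TOP2A, MKI67 and CCNB1 each had a dimmer probe set that read lower still. When the probe sets of each gene were averaged, the G2/M median was -0.49 and the S phase median -0.74. In a bulk sample fewer cells in S phase and less of a transcript per cell cannot be told apart, and the part of the S phase markers in the repair gene values was not tested.

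Targets of p53, which damage signaling through ATM and CHEK2 can raise, stood slightly above the array as a whole. Their median log2 ratio was -0.13 over 19 genes (0.17 with the arrays at one median), with 3 of the 19 lower by more than 1.5-fold and none higher. CDKN1A, which encodes the cell cycle inhibitor p21 and was chosen after its values were seen, read 454 and 453. MDM2 gave -0.60 on its brightest probe set, with its 7 probe sets differing in direction, AEN -0.70, RRM2B -0.65 and PLK3 -0.51.

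**Figure D4:**
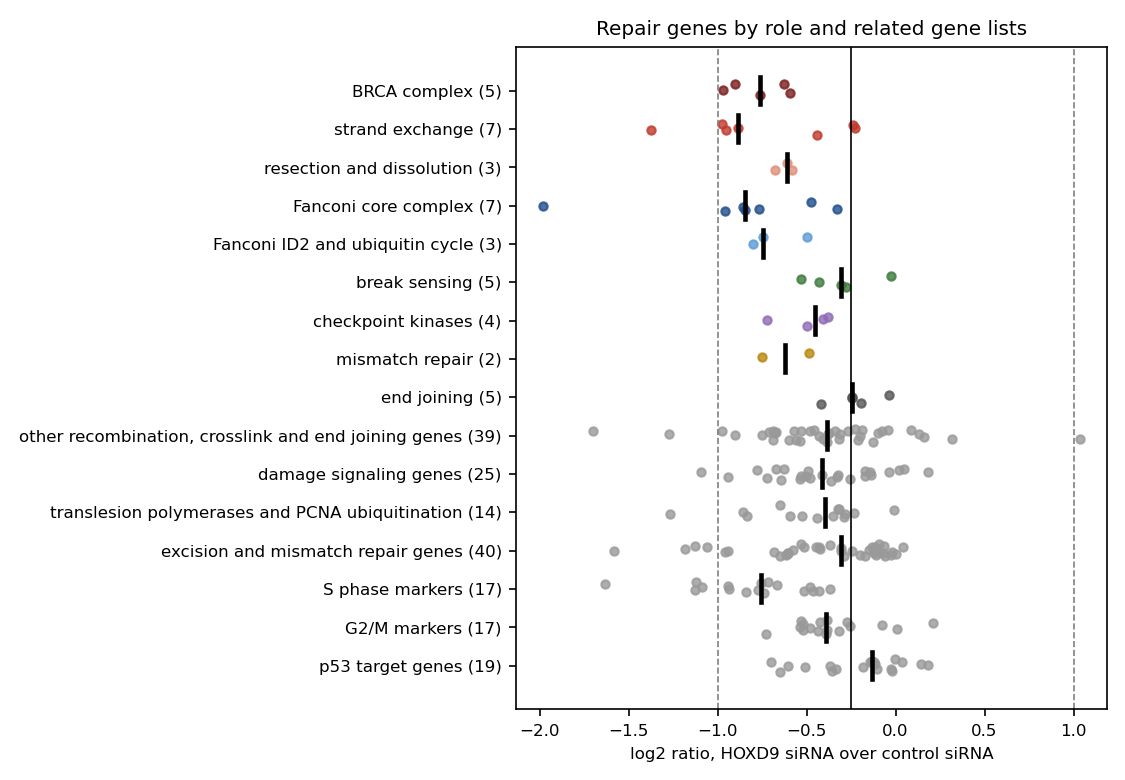
Each point is the log2 ratio (x axis, HOXD9 siRNA over control siRNA) of 1 gene, in the repair roles (colored) and in 7 further gene lists (gray), with the number of genes in parentheses. Thick bars mark medians, the thin line the median of all genes and dashed lines 2-fold. The recombination, Fanconi, mismatch repair and S phase medians lie to the left, from -0.89 to -0.61, and the end joining and p53 target medians at or to the right of the all-gene line.

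**Figure D5:**
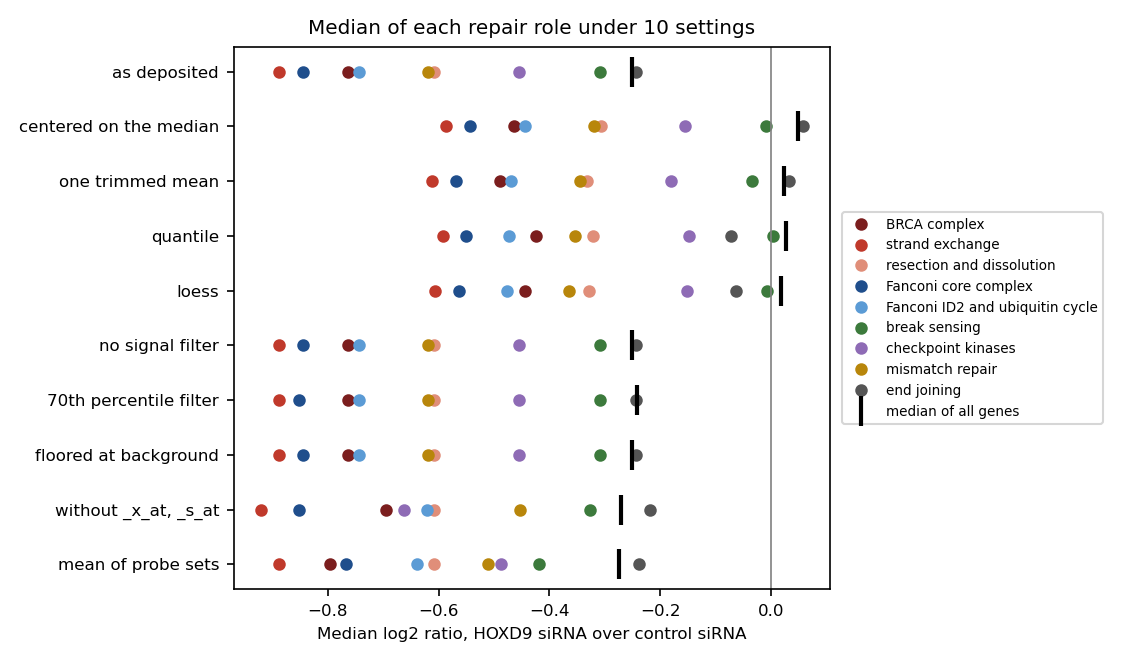
The median log2 ratio of each repair role (x axis) is shown under 10 ways of processing the arrays (y axis), with black ticks for the median of all genes. Scaling the arrays moves every role to the right, by unequal amounts under quantile normalization and loess, where break sensing takes the highest place from end joining. Strand exchange has the lowest median in each row.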

How the data were processed

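The authors deposited 1 linear signal intensity for each probe set on each array, made with GCOS according to the submitters' processing notes and analysed in GeneSpring according to the methods. How the arrays were scaled is not given in the sources used here, nor are detection calls. After 62 control probe sets were set aside, 54613 remained, of which 41091 had 1 gene symbol in the platform annotation, 1801 several and 11721 none listed. Symbols were updated through gene numbers to RefSeq (41037 matched). Log2 ratios were computed from these intensities with no scaling, and genes past 2-fold, the threshold of the methods, were counted. The number of arrays limits the precision.

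Every repair gene is named, and in each further list the 4 genes with the largest ratio, plus CDKN1A. Members and lists were chosen with earlier results of these data known, and the 1.5-fold threshold and the printed promoters after the values were seen. Alternatives were 4 array scalings, 2 signal filters, a floor at background, dropping the _x_at and _s_at probe sets, and averaging probe sets. The counting code was run on simulated data, as deposited and under the 4 scalings, with large changes put into genes well above background. That run does not cover dim genes and does not measure the error of the calls made here. Python 3.11.15, numpy 2.4.6, pandas 2.3.3, statsmodels 0.14.6 and matplotlib 3.10.9 were used.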

Additional observations from a re-analysis of the deposited data

How the results depend on the processing

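The median log2 ratio of the repair genes, -0.58 as deposited, became -0.28 after centering the arrays on their medians, -0.31 with one trimmed mean, -0.27 after quantile normalization and -0.28 after loess, and stayed 0.29 to 0.35 below that of all genes in the 10 settings. The count lower by more than 1.5-fold, 20 as deposited, was 8, 8, 9 and 10 under these 4 scalings. The count past 2-fold, 2 as deposited, was 0 with the filter at the 70th percentile of signal (75.7), which removed FANCB and XRCC3, and 1 without probe sets ending in _x_at or _s_at. Averaging the probe sets brought BRCA1 past 2-fold (-1.16) and took FANCB out (-0.56, from ratios that include signals within background). End joining had the highest median of the roles in 8 of 10 settings, and break sensing in the other 2, quantile normalization and loess. Without probe sets ending in _x_at or _s_at, which left 32 repair genes, checkpoint kinases fell to -0.66 and mismatch repair rose to -0.45. Checkpoint kinases then lay below resection and dissolution (-0.61) and the Fanconi genes downstream of the ligase (-0.62). CHEK2 and USP1, read only by probe sets with these endings, had left their groups. Those gaps were smaller than the spread among probe sets of one gene and carry no order. No paired analysis was possible because each condition has 1 array. Without replicates or detection calls, single ratios of dim probe sets have no error estimate.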
